A study of Mus musculus with 12 samples.

Results

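The interferon-inducible GTPases examined here were 9 mouse genes of the families called immunity-related GTPases (IRG: Iigp1, Igtp, Irgm1 and Irgm2) and guanylate-binding proteins (GBP: Gbp2, Gbp3, Gbp5, Gbp6 and Gbp7). They were found as the probe sets annotated with exactly 1 of these symbols. Of the 9 listed genes, 7 had a probe set of their own, 1 each, among 21314 genes measured. Gbp2 was read only by a probe set shared with its neighbour Gbp2b, and no probe set was annotated to Gbp6. The 7 measured genes were therefore all 4 IRG genes and 3 of the 5 GBP genes.

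Whole colon was taken from 12 mice that were 6 to 8 weeks old, and the RNA of each mouse was hybridised to its own Affymetrix array. The mice fell into 4 groups of 3: wild type on plain drinking water, wild type given 4% dextran sulfate sodium (DSS) in the drinking water for 7 days, Parp1-/- on water, and Parp1-/- on the same DSS course. DSS is a sulfated polysaccharide that injures the colon lining and causes colitis, and Parp1 encodes a poly(ADP-ribose) polymerase that senses DNA breaks. The labels describe Parp1-/- without a Cre driver or a tissue restriction, and they name no mouse strain.

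IRG and GBP proteins are large GTPases that cells make in quantity after interferon-gamma, and many of them also after type I interferon. In mouse cells they gather on the vacuoles that enclose parasites and bacteria, break these membranes, and expose the contents to autophagy and inflammasome pathways. Interferon-gamma signals through its receptor and JAK kinases, and promoters of the genes it induces often hold short DNA elements called GAS and ISRE, the latter bound by IRF factors. In the colon, T cells and NK cells are known sources of interferon-gamma, and epithelial cells and macrophages are among the cells that respond to it.

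Each probe set had been centred on its own median on the log2 scale, so a value of 0 is the middle of the 12 mice and genes cannot be ranked by abundance. For the same reason the arrays cannot show whether markers of colon are present, only how they vary. The base of the logarithm and the direction of the scale were assumed (base 2, larger for more RNA). Differences below are log2 differences with the standard error of limma, fitted on all genes in 1 model of the 4 groups, and a gene was called where the Benjamini-Hochberg adjusted p over all genes was under 0.05. In bulk tissue, fewer cells of a type and less RNA per cell cannot be told apart. With 3 mice a group, the small number of arrays sets the precision.

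Short interferon elements were searched in promoters of the listed genes. Any link between these elements and the values on the arrays was not tested. RefSeq promoter sequences (assembly GRCm38.p6, 250 bases before to 50 bases after the annotated transcript start) were read for 7 of the 9 listed genes, namely Igtp, Irgm2, Irgm1, Gbp2, Gbp3, Gbp5 and Gbp7. Those of Iigp1 and Gbp6 were not read. Each stretch below lies upstream of the start, runs 5′ to 3′ on the strand of the gene, and has matches to the ISRE core in capitals.
Igtp, chr11:58199487-58199555, plus strand: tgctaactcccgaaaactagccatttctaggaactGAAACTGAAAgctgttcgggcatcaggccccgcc
Irgm2, chr11:58214878-58214947, plus strand: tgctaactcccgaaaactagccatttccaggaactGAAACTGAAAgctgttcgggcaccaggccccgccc
Irgm1, chr11:48871421-48871485, minus strand: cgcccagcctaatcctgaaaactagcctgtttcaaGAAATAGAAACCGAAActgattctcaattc
Gbp2, chr3:142620569-142620638, plus strand: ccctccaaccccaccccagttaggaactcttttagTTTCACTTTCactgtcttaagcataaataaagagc
Gbp3, chr3:142559964-142560015, plus strand: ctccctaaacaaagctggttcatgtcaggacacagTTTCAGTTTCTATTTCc
Gbp5, chr3:142496734-142496803, plus strand: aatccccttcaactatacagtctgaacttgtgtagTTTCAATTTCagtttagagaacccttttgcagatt
Gbp7, chr3:142530248-142530317, plus strand: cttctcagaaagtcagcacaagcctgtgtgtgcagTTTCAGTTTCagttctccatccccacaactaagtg

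The ISRE core was searched as GAAANNGAAA on both strands, and all 7 genes whose promoters were read had a match. Counted by promoter, 7 of 8 held one. Over all promoters of the same length, 1131 of 32851, or 3.44%, held one. In the 3 IRG genes the match read along the strand of the gene, and in the 4 GBP genes it lay on the opposite strand. Counted in bases from the start, matches began at -34 in Igtp, at -64 in Irgm2, at -59 in Gbp2, at -53 in Gbp7 and at -165 in Gbp5. Irgm1 held 2 overlapping matches, at -30 and -24, and Gbp3 held 2 overlapping matches, at -45 and -39. Gbp3 has a second annotated start, whose promoter held none. The GAS core, searched as TTCNNNGAA, matched in 4 of the 7 genes (Igtp, Irgm2, Gbp5 and Gbp7). By promoter this was 4 of 8, against 8.30% of all promoters. These matches are a description of the letters in the window and say nothing of binding.

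**Figure D1:**
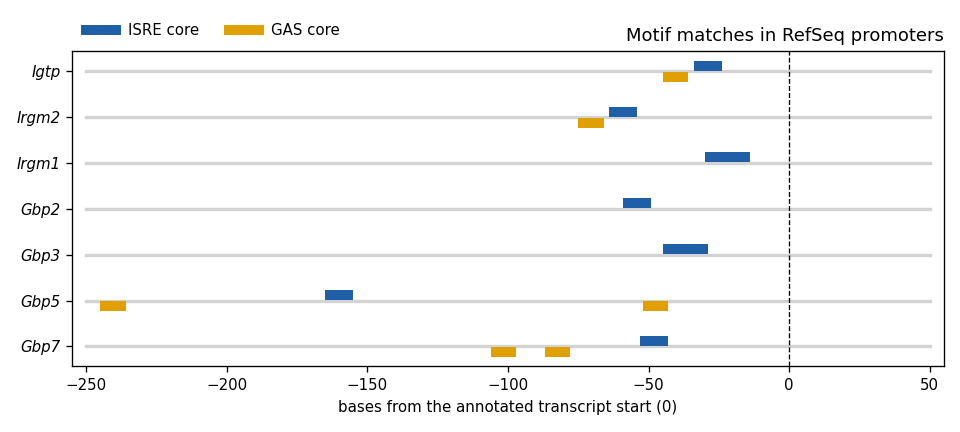
Matches to the ISRE core (blue) and the GAS core (yellow) in the 300-base RefSeq promoters of 7 members, with the distance in bases from the annotated transcript start (0, dashed) on the horizontal axis. All 7 members have an ISRE core match, and only Gbp5 has its match more than 64 bases upstream of the start.

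The promoters are not independent of each other. Igtp and Irgm2 are adjacent genes on chromosome 11, and their promoters had 247 identical bases over 271 aligned columns, or 91.1% identity. Gbp5, Gbp7, Gbp3, Gbp2b and Gbp2 follow each other on chromosome 3 with no other protein-coding gene between them. Family members may also share signal on an array, but the likeness of their transcripts and probes was not measured here. Values of neighbouring copies may therefore not be fully separate measurements.

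Before the results, 4 arrays stand apart from the other 8. In all 3 wild-type water arrays and in wild-type DSS 1, the SD over all probe sets was 0.666 to 0.871, against 0.256 to 0.394 elsewhere, and the mean of 16 housekeeping genes was -1.79 to -1.02, against 0.06 to 0.38. Every wild-type water array belongs to this set, so wild-type water as a group and this difference between arrays cannot be told apart. The mean of the colon epithelium markers (13 of 14 measured, Cdh1, Krt8 and Muc2 among those listed) was -1.55 to -0.73 on these 4 arrays and -0.05 to 0.29 on the others. The smooth muscle marker mean was 2.56 to 2.63 on Parp1-/- water 2, Parp1-/- water 3 and Parp1-/- DSS 1 and at most 0.06 on the other arrays. Parp1 ranged from -0.41 to 1.15 over the 6 wild-type mice and from -0.22 to 0.03 over the 6 Parp1-/- mice. The genotypes overlapped, so the targeted gene is a weak check of the labels on these arrays.

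In wild-type colon, 3 of the 7 measured GTPases rose with DSS: Irgm2 by 2.12 ± 0.45, Gbp7 by 1.77 ± 0.39 and Iigp1 by 1.64 ± 0.43 on the log2 scale (SE, 3 mice against 3). In Parp1-/- colon none of the 7 was called, with differences from 0.17 for Gbp3 to 0.97 for Irgm2. The test of the difference between the genotypes' responses called none of the 7 either. All 7 genes had their highest group mean in wild-type DSS, and all 7 had their highest single value on 1 array, wild-type DSS 2.

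**Figure D2:**
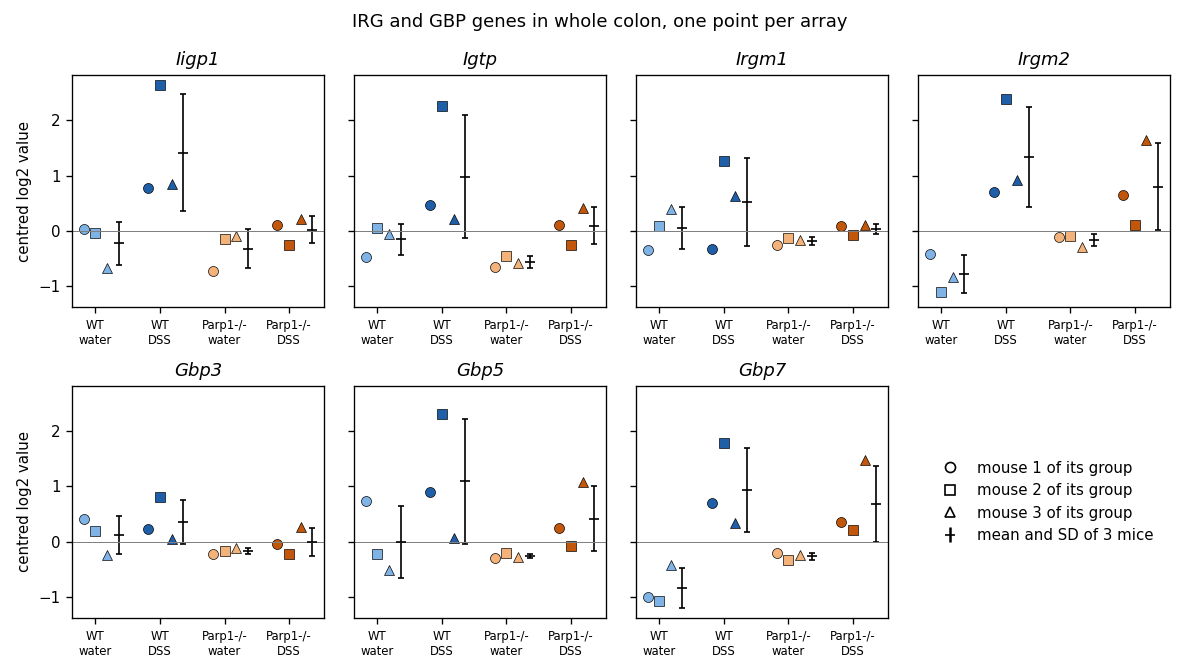
Centred log2 value of each of the 7 measured genes on every array (WT, wild type; circle, square and triangle are mouse 1, 2 and 3 of a group, and the black bar is the mean ± SD of 3 mice). The square of wild-type DSS is the highest point in every panel, and the 3 Parp1-/- water points lie below 0 in every panel.

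The IRG family falls into effectors that load onto vacuole membranes and regulators that hold the effectors inactive on the membranes of the cell itself. Iigp1, also called Irga6, is the effector among the members. Wild-type values were 0.04, -0.04 and -0.67 on water and 0.77, 2.63 and 0.84 after DSS. All 3 wild-type DSS arrays lay above all 3 water arrays. The difference of 1.64 ± 0.43 (95% confidence interval 0.70 to 2.58) corresponds to 3.11-fold, with a limma adjusted p of 0.0296. In Parp1-/- mice Iigp1 was at -0.72, -0.15 and -0.09 in water and at 0.11, -0.26 and 0.22 in DSS. These groups overlapped, and the difference of 0.34 ± 0.43 was not called (limma adjusted p = 1).

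Irgm2 is a regulatory IRG protein of Golgi and other inner membranes. Wild-type values were -0.41, -1.10 and -0.84 on water and 0.71, 2.38 and 0.92 after DSS. The groups did not overlap, and the difference of 2.12 ± 0.45 (95% confidence interval 1.13 to 3.10), or 4.34-fold, had a limma adjusted p of 0.0113. Parp1-/- mice had Irgm2 at -0.12, -0.10 and -0.29 in water and at 0.65, 0.10 and 1.65 in DSS. Those groups did not overlap either, with Parp1-/- DSS 3 the highest and DSS 2 the lowest of the treated mice, and the difference of 0.97 ± 0.45 (95% confidence interval -0.02 to 1.95) was not called (limma adjusted p = 1).

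Igtp, also called Irgm3, is a regulatory IRG protein of the endoplasmic reticulum. Wild-type values were -0.47, 0.05 and -0.05 on water and 0.46, 2.26 and 0.22 after DSS. The groups did not overlap, but 1 mouse lay far above the other 2 of its group, and the difference of 1.13 ± 0.43 was not called (limma adjusted p = 0.105). In Parp1-/- mice Igtp was at -0.66, -0.45 and -0.58 in water and at 0.11, -0.25 and 0.42 in DSS. All 3 treated mice lay above all 3 controls, with a difference of 0.66 ± 0.43 that was not called (limma adjusted p = 1).

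Irgm1, the regulator known for its part in autophagy and in the survival of interferon-exposed lymphocytes, varied less. Wild-type values were -0.35, 0.09 and 0.40 on water and -0.33, 1.26 and 0.63 after DSS. The groups overlapped, since wild-type DSS 1 was at the level of the lowest water mouse, and the difference was 0.47 ± 0.33 (limma adjusted p = 0.355). Without Parp1 it was at -0.26, -0.13 and -0.16 in water and at 0.08, -0.08 and 0.10 in DSS. The groups did not overlap, but they were 0.21 ± 0.33 apart, which was not called (limma adjusted p = 1).

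Among the GBP genes, Gbp7 has been linked to delivery of oxidase and autophagy components to vacuoles that hold bacteria. Wild-type values were -1.0, -1.08 and -0.42 on water and 0.69, 1.79 and 0.33 after DSS. The groups did not overlap, and the difference of 1.77 ± 0.39 (95% confidence interval 0.91 to 2.63), or 3.42-fold, had a limma adjusted p of 0.0141. Parp1-/- mice had Gbp7 at -0.21, -0.33 and -0.25 in water and at 0.35, 0.21 and 1.47 in DSS. Those groups did not overlap, and the difference of 0.94 ± 0.39 (95% confidence interval 0.08 to 1.80) had an unadjusted p of 0.0348 and an adjusted p of 1 in limma.

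Gbp5 has been linked to inflammasome activation in macrophages. Wild-type values were 0.73, -0.23 and -0.51 on water and 0.90, 2.30 and 0.07 after DSS. The groups overlapped because wild-type water 1 lay above wild-type DSS 3, and the difference of 1.10 ± 0.51 was not called (limma adjusted p = 0.169). For Parp1-/- mice Gbp5 was at -0.29, -0.21 and -0.28 in water and at 0.24, -0.07 and 1.07 in DSS, without overlap. That difference of 0.67 ± 0.51 was not called (limma adjusted p = 1).

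Gbp3, a GBP of the same cluster that gathers on parasite vacuoles, moved least of the 7. Wild-type values were 0.41, 0.20 and -0.25 on water and 0.23, 0.81 and 0.05 after DSS. The groups overlapped, and the difference was 0.24 ± 0.23 (limma adjusted p = 0.514). Without Parp1 it was at -0.23, -0.17 and -0.11 in water and at -0.05, -0.23 and 0.27 in DSS, a difference of 0.17 ± 0.23 (limma adjusted p = 1) between groups that overlapped.

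Counted over the genes, the wild-type DSS response was called higher for 3 of 7 and lower for 0 of 7, against 8.89% of all genes called higher and 4.16% called lower. The difference was above 0 for 7 of 7, with a median of 1.13, while the median over all genes was -0.05 and 45.8% of all genes lay above 0. Groups did not overlap, with DSS higher, for 4 of 7 (Iigp1, Igtp, Irgm2 and Gbp7), against 11.4% of all genes. Housekeeping genes moved with this comparison: 9 of 16 were called higher and their median difference was 1.26. Their part in the result was not tested.

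The wild-type calls depended on single arrays and on scaling. When wild-type DSS 2 was left out only Irgm2 was called, at 1.60 with a limma adjusted p of 0.0378, and the median of the 7 genes was 0.50. The call of Iigp1 was also lost without wild-type water 1 or wild-type water 3. Without wild-type DSS 1, 5 members were called, while the calls over all 21314 genes rose from 2781 to 6865. Under quantile normalization between arrays none was called, with Irgm2 at 1.57 (limma adjusted p = 0.0835), Iigp1 at 1.35 (0.178) and Gbp7 at 1.18 (0.142). A fit of the 6 wild-type arrays alone also called none, with adjusted p of 0.0511 for Irgm2, 0.0641 for Gbp7 and 0.151 for Iigp1.

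**Figure D3:**
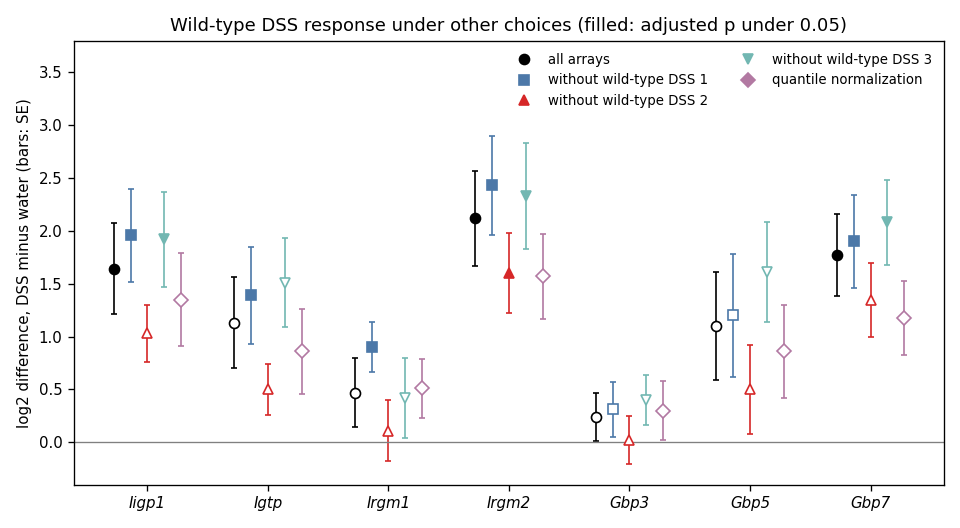
Wild-type DSS response of each gene (log2 difference, DSS minus water; bars are the limma standard error) with all arrays, without each wild-type DSS array in turn, and after quantile normalization; filled symbols have an adjusted p under 0.05. The red triangles, without wild-type DSS 2, are the lowest or nearly the lowest estimate for every gene, and only Irgm2 stays filled there.

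A comparison within the arrays that stand apart is possible for 1 treated mouse. Wild-type DSS 1 lay above all 3 wild-type water arrays for 5 of 7 genes, against 25.8% of all genes. It exceeded the mean of the water arrays by 1.53 for Gbp7, 1.49 for Irgm2, 1.0 for Iigp1, 0.91 for Gbp5 and 0.62 for Igtp. For Gbp3 it exceeded that mean by 0.11 without clearing every water mouse, and for Irgm1 it differed by -0.37. With 1 treated mouse this has no test. Across both genotypes, all 6 DSS arrays lay above all 6 water arrays for 2 of 7 genes, Irgm2 and Gbp7, against 0.666% of all genes.

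In Parp1-/- colon, DSS against water called 0 of 7 genes in either direction, against 0.00938% of all genes called higher and 0% called lower. An unadjusted limma p under 0.05 was reached by 1 of 7, Gbp7, and by 2.86% of all genes. All 7 differences were above 0, with a median of 0.66, against a median of 0.01 over all genes and 53.1% of genes above 0. Groups did not overlap, with DSS higher, for 5 of 7 (Igtp, Irgm1, Irgm2, Gbp5 and Gbp7), against 7.82% of all genes. Parp1-/- DSS 3 was the highest mouse of its group for all 7 genes, and Parp1-/- DSS 2 was the lowest for all 7. Here the housekeeping median was 0.01, with 0 of 16 called.

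The difference of the responses (Parp1-/- response minus wild-type response) was called for 0 of 7 genes, against 0.216% of all genes called higher and 2.33% called lower. It was -1.29 ± 0.61 for Iigp1 (95% confidence interval -2.63 to 0.04, limma adjusted p = 0.297), -1.15 ± 0.63 for Irgm2 (-2.54 to 0.24, 0.366) and -0.83 ± 0.56 for Gbp7 (-2.05 to 0.39, 0.453). It was -0.48 for Igtp, -0.43 for Gbp5, -0.26 for Irgm1 and -0.07 for Gbp3. These intervals span both no difference and a response lost in full, so the calls in wild type and their absence in Parp1-/- do not show that the genotypes responded differently. The median of the 7 was -0.48, against 0.05 over all genes, and without wild-type DSS 2 it was 0.11.

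**Figure D4:**
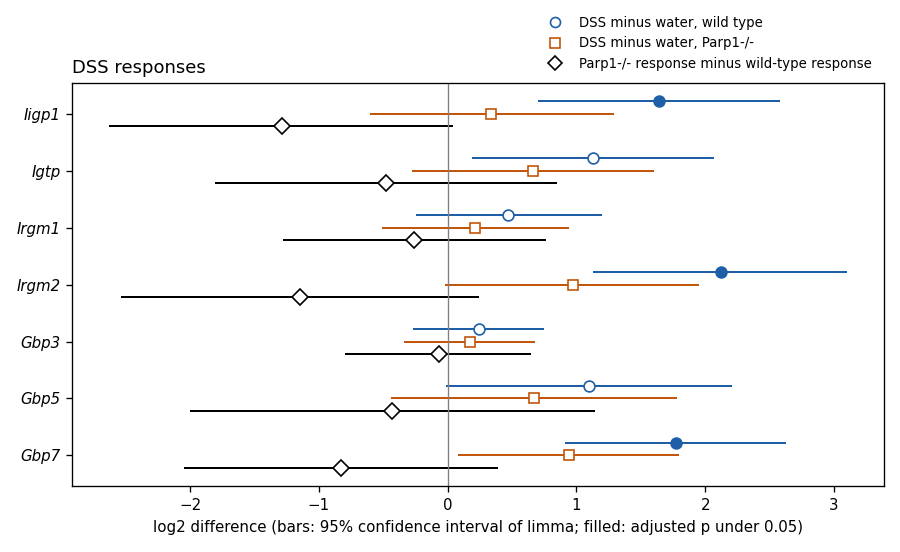
DSS response of each gene in wild type (blue circles) and Parp1-/- (orange squares) and their difference (black diamonds), as log2 differences with 95% confidence intervals of limma; filled symbols have an adjusted p under 0.05. Only the wild-type responses of Iigp1, Irgm2 and Gbp7 are filled, and the interval of the difference includes 0 for all 7 genes.

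In DSS-treated mice, Parp1-/- against wild type was called for 0 of 7 genes, with 0% of all genes called higher and 0% lower. The 7 differences ran from -1.39 for Iigp1 to -0.26 for Gbp7, with a median of -0.54 against 0.00 over all genes. Iigp1 (-1.39 ± 0.43, 95% confidence interval -2.33 to -0.45) was the 1 gene whose groups did not overlap, with Parp1-/- lower, where 4.52% of all genes had that pattern. Its limma p was 0.00764 before and 0.872 after adjustment over all genes. The others were -0.88 for Igtp, -0.68 for Gbp5, -0.54 for Irgm2, -0.49 for Irgm1 and -0.37 for Gbp3. Without wild-type DSS 2 the median was -0.12 and 1 of the 7 was above 0. The 8 arrays that do not stand apart hold only wild-type DSS 2 and wild-type DSS 3 of the wild-type DSS group. There the median was -0.85, with a range of -1.71 to -0.38 and 0 called.

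In water, Parp1-/- against wild type was called for 0 of 7 genes, although 17.9% of all genes were called higher and 13.7% lower, and 0 of 7 reached an unadjusted limma p under 0.05. Irgm2 (0.62 ± 0.45) and Gbp7 (0.57 ± 0.39) were higher in all 3 Parp1-/- mice than in all 3 wild-type mice, a pattern of 26.2% of all genes. The other 5 differences were negative: -0.41 for Igtp, -0.29 for Gbp3, -0.25 for Gbp5, -0.23 for Irgm1 and -0.10 for Iigp1. The median of the housekeeping genes was 1.49 in this comparison, with 12 of 16 called higher. The same wild-type water arrays serve this comparison and the wild-type DSS response. The 3 Parp1-/- water mice were close together, with an SD of 0.04 for Gbp5, 0.06 for Gbp3 and Gbp7, 0.07 for Irgm1, 0.10 for Irgm2, 0.11 for Igtp and 0.34 for Iigp1.

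Ordered by group mean, wild-type DSS came first for all 7 genes. For Iigp1 the means were 1.41 ± 1.05 after DSS and -0.22 ± 0.39 on water in wild type, and 0.02 ± 0.25 after DSS and -0.32 ± 0.34 on water in Parp1-/- (SD, n = 3), and the 3 groups below wild-type DSS did not differ beyond their spread. For Irgm2 they were 1.33 ± 0.91 and -0.78 ± 0.35 in wild type and 0.80 ± 0.79 and -0.17 ± 0.10 in Parp1-/-, so that the DSS groups were within their spread of each other and wild-type water was lowest. Gbp7 had the same order as Irgm2, with 0.94 ± 0.76 and -0.83 ± 0.36 in wild type and 0.68 ± 0.69 and -0.26 ± 0.06 in Parp1-/-. Igtp and Gbp5 followed the order of Iigp1, in which Parp1-/- DSS came second and Parp1-/- water last. For Irgm1 and Gbp3 wild-type water came second, ahead of Parp1-/- DSS. In these orders, neighbouring groups of Irgm1 and Gbp3 overlapped, except that the Parp1-/- groups of Irgm1 did not. Iigp1, Irgm2 and Gbp7 also had neighbouring groups without overlap.

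The members varied together from mouse to mouse. The mean of the 7 genes in wild-type mice was -0.15, -0.30 and -0.34 on water and 0.49, 1.92 and 0.44 after DSS. Among Parp1-/- mice it was -0.36, -0.22 and -0.25 on water and 0.21, -0.08 and 0.74 after DSS. Wild-type DSS 2 was more than 1 log2 unit above any other mouse in this mean. Over the 12 arrays the 21 pairs of genes had Pearson correlations from 0.47 (Gbp3 with Gbp7) to 0.95 (Irgm2 with Gbp7), with a median of 0.78. Without wild-type DSS 2 the median over 11 arrays was 0.56 and the lowest was -0.28 (Irgm1 with Gbp5). Within the 6 Parp1-/- arrays the pairs ran from 0.65 to 0.99, with a median of 0.89. These correlations include the difference between DSS and water. With each group's mean taken off, the pairs ran from 0.21 to 0.94 over the 12 arrays, wild-type DSS 2 among them, with a median of 0.72. All pairs share the same arrays, so these values are a description.

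Interferon-gamma itself (Ifng), the main inducer of these genes, was at 0.25, -0.11 and 0.01 in wild-type mice on water and at 0.66, 2.31 and -0.15 in those on DSS. Wild-type DSS 2, the mouse with the highest value of every member, was also the highest for Ifng, and the groups overlapped. The differences were 0.89 ± 0.45 in wild type (limma adjusted p = 0.209) and 0.10 ± 0.45 in Parp1-/-, where the 6 values lay between -0.18 and 0.08. Parp1-/- DSS 3, with a member mean of 0.74, had Ifng at 0.08, the highest of those 6 values. Cxcl10, a chemokine induced by interferon-gamma, was at -0.03, -0.74 and -1.26 in wild-type mice on water and at 3.15, 4.45 and 0.63 in those on DSS. Its Parp1-/- values were -1.11, -1.35 and -1.27 on water and 0.37, 0.03 and 1.49 after DSS. Its highest mouse in each DSS group was the one with the highest member mean.

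**Figure D5:**
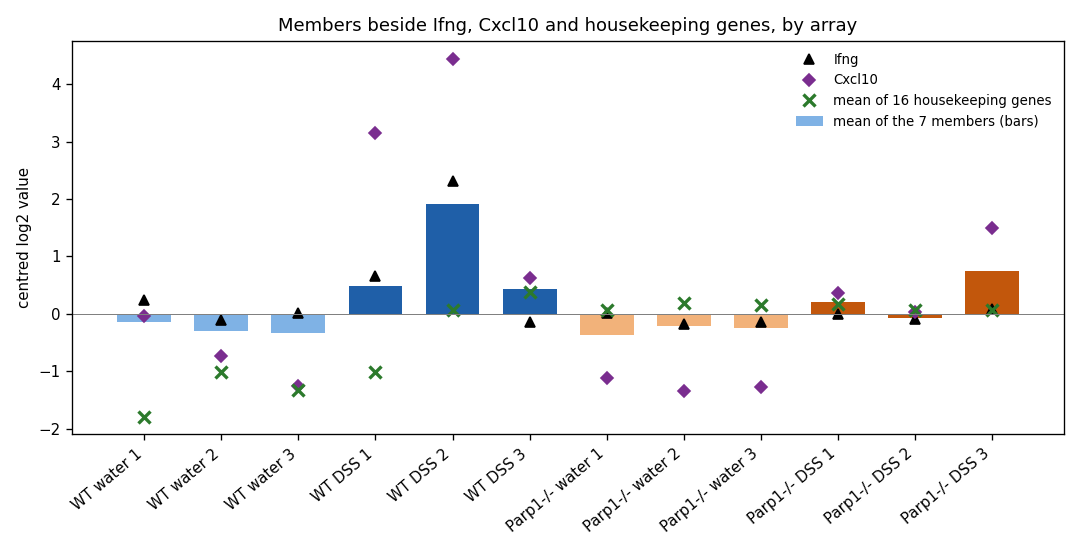
Mean centred log2 value of the 7 members on each array (bars, from 0) beside Ifng (triangles), Cxcl10 (diamonds) and the mean of 16 housekeeping genes (crosses). Wild-type DSS 2 has the highest member mean, Ifng and Cxcl10, and the crosses lie at or below -1.02 on the 3 wild-type water arrays and wild-type DSS 1.

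The genes whose pattern was most like the mean of the members over the 12 arrays were Rsad2 (Pearson r = 0.96), Ly6i (0.93), Cxcl10 (0.92), Oas3 (0.92) and Ccl2 (0.91). Over the 8 arrays that do not stand apart they were Cxcl10 (0.99), Rsad2 (0.98), Mageb17-ps (0.98), Ltb4r1 (0.98) and Tmem121 (0.97). Rsad2 and Cxcl10 were in both sets of 5. These were the highest of all genes by choice, and wild-type DSS 2 weighs on each value.

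Of 19 listed IRG and GBP relatives outside the members, 12 were measured. In wild type, 1 rose with DSS (Gbp2b by 2.36 ± 0.42, limma adjusted p = 0.00457) and 1 fell (Gbp11 by 0.73 ± 0.16, adjusted p = 0.0147), with a median of 0.23. Over all genes, 8.89% were called higher and 4.16% lower in this comparison. Gbp2b, the gene next to Gbp2, was called without each array in turn and under quantile normalization (adjusted p = 0.0430), while the call of Gbp11 was lost under quantile normalization (0.229) and without wild-type DSS 3 (0.0504). In Parp1-/- none of the 12 was called. Gbp2b was at -0.60, -0.87 and -0.86 in Parp1-/- water and at 0.73, 0.38 and 1.33 in Parp1-/- DSS, without overlap, a difference of 1.59 (limma adjusted p = 0.721). Gm12250, the gene before Igtp, was at 0.44, 2.02 and 0.46 in wild-type DSS and -0.05, -0.08 and -0.15 in wild-type water. Its Parp1-/- values were 0.28, 0.05 and 0.77 in DSS and -0.13, -0.38 and -0.43 in water, also without overlap. It was called in neither response.

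Upstream of the GTPases, 2 of 16 interferon ligands and inducers were called higher with DSS in wild type, against 8.89% of all genes. They were Tnf by 2.37 and Il27, a cytokine that drives interferon-gamma production, by 1.05. Of 9 receptors and JAK kinases, 3 rose (Jak2 by 2.09, the receptor chain Ifngr1 by 1.96 and Tyk2 by 1.21), and of 15 measured transcription factors and feedback genes 4 rose (Stat3 by 2.44, Irf2 by 2.37, Pias1 by 2.02 and Irf9 by 1.17). The medians of these 3 lists were 0.22, 1.11 and 0.65 in wild type and 0.12, 0.28 and 0.47 in Parp1-/-, where none was called. The mean of the receptor and kinase list was -1.69 to -0.73 on the 4 arrays that stand apart and -0.06 to 0.38 on the others, a split like that of the housekeeping genes, whose part was not tested. The mean of the transcription factor list split likewise, at -0.91 to -0.41 on those 4 arrays and -0.17 to 0.50 on the others. Irf2, Stat3 and Pias1 were also called higher in Parp1-/- than in wild-type mice on water, by 2.29, 2.19 and 2.19. So were Ifngr1 by 1.91, Jak2 by 1.85 and Il27 by 0.78. That comparison uses the same wild-type water arrays. Irf1, the ISRE-binding factor that interferon-gamma induces, differed by 0.68 in wild type (limma adjusted p = 0.144). The calls of Tnf (limma adjusted p = 0.0595) and Irf9 (0.169) were lost without wild-type DSS 2.

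Beside the GTPases, 8 of 23 other genes induced by interferon-gamma rose with DSS in wild type and 1 fell, the proteasome activator Psme2, by 2.12. The median was 1.04. Over all genes, 8.89% were called higher and 4.16% lower in that response. Nos2, which makes nitric oxide, rose by 4.31, and the chemokines Cxcl10, Cxcl9 and Cxcl11 rose by 3.42, 3.40 and 3.18. Without wild-type DSS 2 the list had 3 calls of either direction, and Cxcl10 (limma adjusted p = 0.0501), Cxcl9 (0.124) and Cxcl11 (0.110) missed the threshold. In Parp1-/- the median was 0.59, and 1 gene was called, Nos2, which rose by 3.17 (adjusted p = 0.0341). That call held in 7 of 12 fits with 1 array left out and was lost, with an adjusted p of up to 0.289, without wild-type water 2, Parp1-/- water 2 or 3, or Parp1-/- DSS 1 or 3. Of 21 measured type I interferon genes, 5 rose in wild type, among them the antiviral genes Oasl1 by 2.08, Ifit1 by 1.61 and Oasl2 by 1.55, and Rtp4 by 1.44. Oasl1 was at -2.51 to -1.45 on the 4 arrays that stand apart and at -0.35 to 1.14 on the others. It was also called higher in Parp1-/- than in wild-type mice on water, by 2.02. The medians of the type I list were 0.56 in wild type and 0.59 in Parp1-/-, where none was called.

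Of 17 listed autophagy and ubiquitin genes, 7 were called higher with DSS in wild type, against 8.89% of all genes. Among the 7 were Map1lc3b by 3.07, Atg3 by 2.08, Atg12 by 2.05 and Gabarap by 2.04. The mean of the 17 genes was -1.40 to -0.75 on the 4 arrays that stand apart and 0.05 to 0.35 on the others. Their median difference was 0.04 in Parp1-/-. On water, 9 of the 17 were called higher in Parp1-/- than in wild-type mice, among them Map1lc3b by 2.76, Atg3 by 2.29 and Atg12 by 2.13. This list thus moved with the housekeeping genes, whose part in its calls was not tested. Of 13 inflammasome and pyroptosis genes, 6 rose in wild type, among them Il1b by 4.34, Il1a by 3.91, Casp8 by 2.12 and the adaptor Pycard by 2.03. The median of that list was 1.14 in wild type and 0.64 in Parp1-/-, where none was called. Casp8 and Pycard were also called higher in Parp1-/- than in wild-type mice on water, by 1.5 and 1.58. Without wild-type DSS 2, 3 genes of the list were called, and Il1a missed the threshold (limma adjusted p = 0.0887).

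The wild-type counts of these 8 lists depended on single arrays and on scaling as the members did. Without wild-type DSS 1, more genes were called in each, but so were 6865 of all 21314 genes, against 2781 with all arrays. The counts were 4 of 12 relatives, 4 of 16 ligands and inducers, and 8 of 9 receptors and kinases. They were 10 of 15 transcription factors and feedback genes and 16 of 23 in the interferon-gamma list. For the last 3 lists they were 12 of 21 type I genes, 12 of 17 autophagy genes and 9 of 13 inflammasome genes. Under quantile normalization the calls were 1, 0, 1, 2, 2, 0, 4 and 2 in the same order, with 232 of all 21314 genes called. Gbp2b, Jak2, Irf2, Pias1, Nos2, Il1b and Pycard were among the list genes called. Calls of Cxcl9 and Cxcl11 were also lost without any 1 of the wild-type water arrays, that of Cxcl10 without wild-type water 3, those of Tnf and Oasl1 without wild-type water 2, DSS 2 or DSS 3, and that of Il1a without wild-type water 1 or 2. Irf9 kept its call in 1 of the 12 fits.

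Markers of cells that could carry these GTPases or feed them interferon also differed between arrays. Beside the counts below, 8.89% of all genes were called higher and 4.16% lower in the wild-type DSS response. In wild type 3 of 11 macrophage and monocyte markers rose with DSS (Cd14 by 2.12, Cd68 by 1.54 and Itgam by 1.23), with a median of 0.61 against 0.02 in Parp1-/-. The mean of this list ran from -0.59 to -0.13 on water and from -0.04 to 0.80 after DSS in wild-type mice, and from -0.39 to 0.24 and from 0.35 to 0.51 in Parp1-/- mice. Of 11 neutrophil markers 4 rose in wild type, with medians of 1.02 and 0.82 in wild type and Parp1-/-. Of 14 T cell and NK cell markers, 1 rose (Cd3e by 1.24) and 1 fell (Cd3d by 0.66) in wild type, and the list mean ran from 0.18 to 0.31 on water and from 0.21 to 0.24 after DSS. Without wild-type DSS 2 the calls of Cd14 (limma adjusted p = 0.0805), Itgam (0.135), Cd3e (0.105) and Cd3d (0.117) and all 4 neutrophil calls were lost. Under quantile normalization, where 232 of all 21314 genes were called, 0 macrophage, 0 neutrophil and 0 T cell and NK cell markers were called. Cd68 had a limma adjusted p of 0.188 there. Of the colon epithelium markers 9 of 13 were called higher after DSS in wild type, with a median of 1.68 against -0.03 in Parp1-/-. Under quantile normalization 3 were called. On water, 11 of the 13 were also called higher in Parp1-/- than in wild type, with a median of 1.64. Both comparisons use the same low wild-type water arrays, so these calls cannot be told apart from the difference between arrays. None of the 8 B cell and plasma cell, 11 endothelium or 13 smooth muscle markers was called in either DSS response. The part of these cell types in the values of the GTPases was not tested.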

How the data were processed

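RNA of whole colon from 12 separate mice was measured with Affymetrix arrays, as the labels' protocols say; no batch or date is given. The table the authors deposited holds log2 values for 31693 probe sets, from -4.83 to 5.47. The median of each probe set was 0 to within 5e-07, so the authors' values were centred per probe set; software, normalization, log base and direction were not given in the sources used here. Base 2 was assumed, and that a larger value means more RNA. Signal over background is unknown.

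Probe sets were named from GEO's platform annotation: 22586 had 1 symbol, 1756 several and 7351 none. Probe sets of a gene were averaged (21314 genes), and limma 3.58.1 in R 4.3.3 (lmFit, contrasts, eBayes) was fitted to all 12 arrays with 4 groups and Benjamini-Hochberg adjustment over all genes. The model was run on simulated data with a known change and, for each gene, the same spread on all arrays. That run had no arrays that stand apart and no outlying mouse, so it does not bear on those limits. Promoters and neighbours came from RefSeq tables of GRCm38.p6, read with Python 3.11.15, pandas 2.3.3 and Biopython 1.88, and figures were drawn with matplotlib 3.10.9. The array's build is not given, so no probe set position is printed.

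All members were named, with Parp1; from each other list up to 4 called genes of largest change, or the 2 of smallest p where none was called, were eligible, and the 5 genes of most similar pattern, passing over predicted models, clones, small RNAs, receptors of smell and immune receptor segments. Ifng, Irf1, Cxcl10, Gm12250 and Psme2 were also given, as regulators, an induced gene, a neighbour and the 1 gene of its list that fell, chosen after their values were seen. The members, lists, tests and alternatives were chosen with earlier results of these data known. Alternatives were quantile normalization, equal array medians, single probe sets, trend and robust eBayes, array weights, only the arrays compared, the 8 arrays that do not stand apart, leaving out each array, and a stricter adjusted p of 0.01. Replicate numbers only name mice.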

Additional observations from a re-analysis of the deposited data

Results flagged for a closer look

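The probe set shared by Gbp2 and Gbp2b entered no comparison of the members, because its signal cannot be assigned to 1 gene, yet it held a signal: over both genotypes DSS exceeded water by 1.70 on the log2 scale, and all 6 DSS arrays lay above all 6 water arrays. It was at -1.08, -0.20 and -0.94 in wild-type water and at 0.54, 2.35 and 0.65 in wild-type DSS. In Parp1-/- mice it was at -0.74, -0.50 and -0.61 in water and at 0.78, 0.20 and 1.57 in DSS. In a limma fit of all 31693 probe sets the wild-type difference was 1.92 ± 0.47 (adjusted p = 0.0233) and the Parp1-/- difference was 1.47 ± 0.47 (adjusted p = 1). The difference of the responses was -0.45.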

How the results depend on the processing

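The wild-type DSS response was called for 3 members with all arrays, for 0 under quantile normalization, in the 6 arrays compared or at an adjusted p under 0.01, and for 1 to 5 when an array was left out. The call of Iigp1 was lost without wild-type water 1 (limma adjusted p = 0.0516), wild-type water 3 (0.0913) or wild-type DSS 2 (0.0575), and that of Gbp7 without wild-type DSS 2 (0.0542). Array weights did not converge: wild-type DSS 2 had a weight of 964, which was 1550 times the median weight, so this fit rests on that mouse for its group. It called 7 members in the wild-type response, 7 for Parp1-/- against wild type in DSS and 6 for the difference of responses, against 3, 0 and 0 with equal weights; over all 21314 genes it called 8772, 6184 and 7675. Over all genes the wild-type response called 2781, 232 under quantile normalization, 641 in the arrays compared, and 6865, 1211 and 1712 without wild-type DSS 1, 2 and 3. Signs that turned belonged to uncalled differences. Under quantile normalization the difference of responses was 0.15 for Gbp5, 0.19 for Gbp7 and 0.24 for Igtp, and Parp1-/- against wild type was 0.08 in DSS and -0.11 in water for Gbp7. For Iigp1 in water it was 0.01 with equal array medians and 0.12 with array weights. With 1 array left out, the difference of responses ran from -0.23 to 0.15 for Gbp3, -0.94 to 0.18 for Gbp5, -0.86 to 0.16 for Igtp and -0.68 to 0.11 for Irgm1. Parp1-/- against wild type in water ran from -0.51 to 0.11 for Gbp5 and -0.32 to 0.10 for Iigp1, and in DSS from -0.66 to 0.17 for Gbp7. The cause of these changes was not tested.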
